A study of Sus scrofa with 8 samples.

Results

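The genes of the nuclear pore and of nuclear transport were described in cultured primary cells from the skeletal muscle of pigs. The members were all genes whose symbol in the deposited expression table begins with NUP followed by a digit, KPNA, KPNB, IPO, XPO or TNPO followed by a digit. The rule gave 30 of the 25285 genes of the table, 13 nucleoporins and 17 transport receptors, and no symbol was repeated. RNA was sequenced from differentiated and from undifferentiated cells of females and of males, with 2 libraries in each of the 4 groups and so 4 libraries per state. All 8 libraries came from pigs of the strain given as LYD, and the protocol calls the cells MuSCs. The labels give no age, culture time, medium or animal number, so a p-value here reflects the spread among the libraries alone, which may be technical.

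The nuclear pore is a channel through the nuclear envelope, built from many copies of nucleoporins. Scaffold nucleoporins form the Y complex and the inner ring, membrane-anchored ones hold the ring in the envelope, and nucleoporins with phenylalanine-glycine repeats line the channel and its faces. Importins carry cargo into the nucleus and exportins carry it out, with direction set by the small GTPase RAN. Importin alpha proteins bind a nuclear localization signal and are carried by importin beta, KPNB1. In muscle, nuclear import brings myogenic factors to the genome, and in mouse cultures NUP210 is known as a nucleoporin induced when myoblasts differentiate.

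Expression is given as FPKM, the fragments of a gene per kilobase of its transcript with each library brought to a common number of mapped fragments. Levels of different genes can then be set side by side as far as their gene models are complete. The state labels were checked with marker genes. The 5 myotube markers MYOG, ACTA1, MYH3, CKM and TNNC2 summed to 9315 to 13831 FPKM in differentiated libraries and 44.2 to 140.4 FPKM in undifferentiated ones. The 11 proliferation markers in the table, MKI67 and TOP2A among them, summed to 47.3 to 132 FPKM in differentiated libraries and 351 to 522 FPKM in undifferentiated ones. No endothelial marker exceeded 6.78 FPKM in any library, no immune marker 15.2 FPKM (CD14), no Schwann cell marker 7.07 FPKM and no adipocyte marker 1.69 FPKM. CD14 and S100B averaged 2.06 and 2.04 FPKM in differentiated cells, against 13.4 and 5.02 FPKM in undifferentiated cells, and fell by limma. PECAM1 did not pass, and the other markers of these cell types in the table were too low to be tested. Fibroblast markers summed to 431 to 1130.4 FPKM in differentiated libraries and 106 to 321 FPKM in undifferentiated ones. Most of that sum was COL1A1, with means of 406 and 73.5 FPKM in differentiated and undifferentiated cells, and COL3A1, with 290 and 101 FPKM. PDGFRA, DCN, LUM and FAP averaged 1.76, 8.26, 2.21 and 2.16 FPKM in differentiated cells, against 0.299, 3.18, 0.289 and 0.488 FPKM. By limma COL1A1, COL3A1 and FAP rose, and PDGFRA, DCN and LUM did not pass. Smooth muscle and pericyte markers summed to 1020.3 to 1220.2 FPKM in differentiated libraries and 17.5 to 40.1 FPKM in undifferentiated ones. Nearly all of the last sum was ACTA2, with 1091 ± 85.0 FPKM in differentiated cells and 17.9 ± 7.25 FPKM in undifferentiated cells, while MYH11 averaged 0.0469 FPKM in differentiated cells and 0.0335 FPKM in undifferentiated cells. CNN1, CSPG4, PDGFRB and RGS5 averaged 4.18, 3.93, 21.5 and 0.848 FPKM in differentiated cells, against 0.247, 0.617, 8.84 and 0.0474 FPKM. ACTA2, CNN1, CSPG4 and PDGFRB rose by limma, while MYH11 and RGS5 were too low to be tested. The 2 myoblast markers in the table went opposite ways by limma: MYOD1 fell, with 94.8 ± 10.4 FPKM in differentiated cells and 184 ± 28.0 FPKM in undifferentiated cells (SD, n = 4 each, adjusted p = 0.00239), and DES rose, with 1173 ± 211 FPKM in differentiated cells and 263 ± 79.9 FPKM in undifferentiated cells (adjusted p = 0.000677). Depth in reads is unknown. The depth estimated from low values, relative to differentiated female replicate 1, was 1 to 1.66 in differentiated libraries and 1.71 to 2.30 in undifferentiated ones. The part of depth and of these markers in the results below was not tested. In bulk RNA, fewer cells of a type and less RNA per cell cannot be told apart.

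Most members were lower in differentiated cells. Of the 30 members, 28 averaged 1 FPKM or more across the 8 libraries and were tested. Relative to undifferentiated cells, 18 of the 28 fell, 3 rose and 7 did not pass (limma on log2(FPKM + 1), two-sided, Benjamini-Hochberg adjusted p under 0.05 over all 12963 tested genes). Across all tested genes 31.9% fell and 18.0% rose, while among the tested members 64.3% fell and 10.7% rose. The median log2 fold change was -0.61 over the tested members and -0.18 over all tested genes. All 4 differentiated libraries lay below all 4 undifferentiated ones for 19 members, where 30.2% of all tested genes did so, and above them for 4 members, where 17.1% of all tested genes did so. Scaling each library by its median ratio moved the median of all tested genes to 0.00 and that of the members to -0.41, and 17 members then fell and 4 rose, where 23.2% and 24.1% of all tested genes did so. At an unadjusted p under 0.05, 22 members and 56.8% of all tested genes passed.

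**Figure D1:**
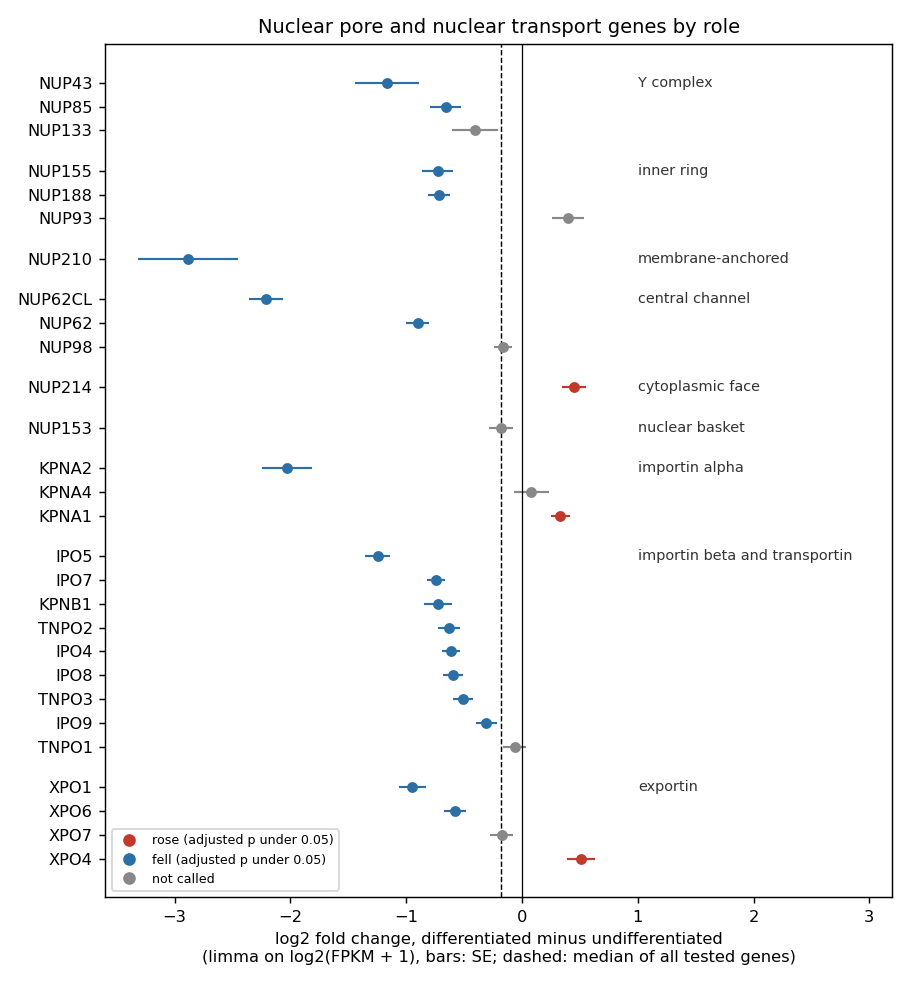
Log2 fold change (differentiated minus undifferentiated, x axis) of the 28 tested members, grouped by role, with SE bars; blue points fell, red points rose and grey points did not pass. Of the 28 members 18 lie to the left as falls, with NUP210 at -2.88 farthest, and 3 to the right as rises, with XPO4 at 0.51 farthest; the dashed line at -0.18 is the median of all tested genes.

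Among the nucleoporins 7 of the 12 tested fell, 1 rose and 4 did not pass. Values are given throughout for female replicates 1 and 2 and then male replicates 1 and 2. NUP210, the membrane-spanning nucleoporin (ENSSSCG00000011610, chromosome 13, 78614180 to 78704945 on Sscrofa10.2), had 1.07, 0.959, 0.696 and 2.41 FPKM in the differentiated libraries, against 10.9, 15.6, 9.32 and 33.3 FPKM in the undifferentiated libraries. The states did not overlap, and undifferentiated male replicate 2 was the highest library of its state by a wide margin. NUP210 fell (log2 fold change -2.88 ± 0.43 SE, limma adjusted p = 0.00249), and its mean was 13.5 times higher in undifferentiated cells. The log2 fold change is taken after adding 1 to each value, which is near the differentiated level of NUP210, and the ratio of means is not. With 0.1 added instead, the log2 fold change was -3.61. The direction of the NUP210 change is opposite to the induction known from mouse cultures. Its relative NUP210L had 0, 2.79, 1.30 and 0 FPKM in differentiated libraries, while each of the 4 undifferentiated libraries lists it at 0, and its mean over all libraries was under the minimum for testing.

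In the Y complex, the outer scaffold of the pore, 2 of 3 tested members fell. NUP43, a small subunit of the complex (ENSSSCG00000004105, chromosome 1, 18577606 to 18591615), had 5.46, 2.54, 7.67 and 5.79 FPKM in the differentiated libraries, against 13.6, 12.3, 17.0 and 8.67 FPKM in the undifferentiated libraries. Its highest differentiated library was below its lowest undifferentiated one, and it fell (log2 fold change -1.16 ± 0.28 SE, limma adjusted p = 0.015). Leaving out differentiated male replicate 2 (adjusted p = 0.0545) or undifferentiated female replicate 1 (0.0554) ended the call of NUP43. NUP85, another subunit of the Y, also fell, with 8.54 to 12.03 FPKM in differentiated libraries, against 12.12 to 19.5 FPKM in undifferentiated ones (log2 fold change -0.66 ± 0.14 SE, limma adjusted p = 0.00889). NUP133, at the tip of its stalk, did not pass with 8.45 to 15.2 FPKM in differentiated libraries, against 14.7 to 19.3 FPKM in undifferentiated ones (log2 fold change -0.41 ± 0.20 SE, limma adjusted p = 0.14), and was called without differentiated female replicate 1 (log2 -0.60, adjusted p = 0.0293).

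The inner ring, which links the scaffold to the membrane and the channel, had 2 of 3 tested members that fell. NUP155 (ENSSSCG00000016845, chromosome 16, 23672791 to 23741895) had 12.9, 13.4, 14.3 and 19.96 FPKM in the differentiated libraries, against 27.7, 23.6, 26.9 and 23.4 FPKM in the undifferentiated libraries. Only differentiated male replicate 2 came near the undifferentiated range, and the gene fell (log2 fold change -0.73 ± 0.13 SE, limma adjusted p = 0.00545). NUP188, a large scaffold protein of the ring, fell as well, with 23.1 to 26.6 FPKM in differentiated libraries, against 37.4 to 44.3 FPKM in undifferentiated ones (log2 fold change -0.72 ± 0.097 SE, limma adjusted p = 0.00178). NUP93, the linker that recruits channel nucleoporins, had 25.5, 20.7, 20.01 and 20.5 FPKM in the differentiated libraries, against 18.2, 13.2, 18.5 and 15.2 FPKM in the undifferentiated libraries. All 4 differentiated libraries of NUP93 were above all 4 undifferentiated ones, but the change did not pass (log2 fold change 0.40 ± 0.14 SE, limma adjusted p = 0.0545). It did pass under 7 of the 16 alternatives, among them median-ratio scaling (log2 0.60, adjusted p = 0.011) and the fit without undifferentiated female replicate 1 (adjusted p = 0.0356).

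In the central channel NUP62, whose repeats contribute to the permeability barrier (ENSSSCG00000003200, chromosome 6, 50702794 to 50704392), had 21.5, 20.8, 17.5 and 21.4 FPKM in the differentiated libraries, against 42.5, 41.4, 38.7 and 32.7 FPKM in the undifferentiated libraries. Every differentiated library was below every undifferentiated one, and NUP62 fell (log2 fold change -0.90 ± 0.10 SE, limma adjusted p = 0.000923). NUP62CL, an X-linked gene related to the C-terminal part of NUP62 (ENSSSCG00000012557, chromosome X, 101950770 to 102030623), had 4.602, 3.18, 3.05 and 2.39 FPKM in the differentiated libraries, against 20.2, 16.7, 19.9 and 17.8 FPKM in the undifferentiated libraries. Its fall was exceeded among the members by that of NUP210 alone (log2 fold change -2.21 ± 0.14 SE, limma adjusted p = 0.000141), and its mean was 5.65 times higher in undifferentiated cells. NUP98, a repeat nucleoporin found on both sides of the pore, ranged over 18.7 to 25.0 FPKM in differentiated libraries, against 23.1 to 26.1 FPKM in undifferentiated ones and did not pass (log2 fold change -0.16 ± 0.081 SE, limma adjusted p = 0.142), with a log2 fold change of 0.038 under median-ratio scaling.

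At the faces of the pore, 1 tested member rose and 1 did not pass. NUP214, on the cytoplasmic filaments (ENSSSCG00000005711, chromosome 1, 305131025 to 305241772), had 38.9, 33.1, 26.1 and 31.7 FPKM in the differentiated libraries, against 21.8, 23.5, 24.2 and 23.8 FPKM in the undifferentiated libraries. The 4 differentiated libraries lay above the 4 undifferentiated ones, with differentiated male replicate 1 closest to them, and NUP214 rose (log2 fold change 0.45 ± 0.10 SE, limma adjusted p = 0.0127). NUP153, of the nuclear basket, had 16.5 to 18.3 FPKM in differentiated libraries, against 18.7 to 22.3 FPKM in undifferentiated ones and did not pass (log2 fold change -0.18 ± 0.10 SE, limma adjusted p = 0.183), with a log2 fold change of 0.018 under median-ratio scaling.

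**Figure D2:**
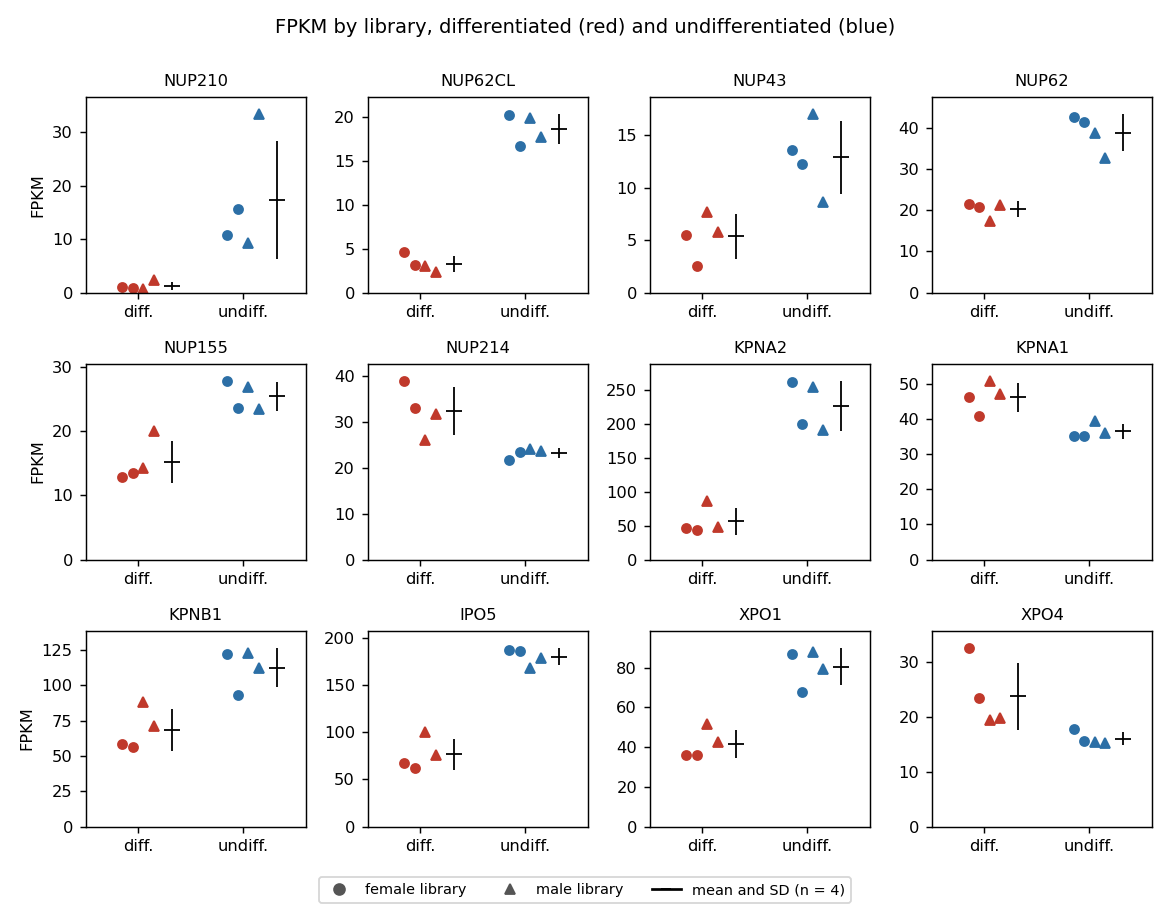
FPKM per library (y axis, linear from 0) of 12 members in the 4 differentiated libraries (red, left) and the 4 undifferentiated libraries (blue, right), circles for female and triangles for male libraries, with the mean and SD beside each state. KPNA2 sits at 44.0 to 85.5 FPKM in differentiated libraries and at 191 to 261 FPKM in undifferentiated ones, while NUP214, KPNA1 and XPO4 sit higher in the differentiated libraries.

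Of the 3 tested importin alpha genes, which bind the cargo signal, 1 fell, 1 rose and 1 did not pass. KPNA2, the importin alpha known for its abundance in proliferating cells (ENSSSCG00000029005, scaffold GL895745.1, 21 to 1863), had 47.2, 44.0, 85.5 and 47.5 FPKM in the differentiated libraries, against 261, 199, 253 and 191 FPKM in the undifferentiated libraries. Differentiated male replicate 1 was the highest of its state and still far below the lowest undifferentiated library. KPNA2 fell (log2 fold change -2.03 ± 0.22 SE, limma adjusted p = 0.000732), with a mean 4.03 times higher in undifferentiated cells. The deposited gene model of KPNA2 spans 1843 bp of an unplaced scaffold. Its level, its rank among the members and its share of importin alpha rest on that model. Whether the model is complete was not tested.

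KPNA1, of another importin alpha subfamily (ENSSSCG00000028475, chromosome 13, 147681195 to 147711773), had 46.1, 40.8, 50.7 and 47.2 FPKM in the differentiated libraries, against 35.3, 35.1, 39.5 and 36.0 FPKM in the undifferentiated libraries. The states did not overlap, and KPNA1 rose by a small amount (log2 fold change 0.33 ± 0.083 SE, limma adjusted p = 0.0187). Leaving out undifferentiated female replicate 1 (adjusted p = 0.0539) or 2 (0.0534), or undifferentiated male replicate 2 (0.0545), ended that call. KPNA4 (ENSSSCG00000027248, scaffold GL896502.1, 794 to 8143) had 96.0, 63.9, 128 and 116 FPKM in the differentiated libraries, against 99.9, 90.9, 81.5 and 98.1 FPKM in the undifferentiated libraries. Its states overlapped and it did not pass (log2 fold change 0.08 ± 0.15 SE, limma adjusted p = 0.682), with a log2 fold change of -0.064 without differentiated female replicate 1. KPNA7, a form known from eggs and early embryos, did not exceed 0.623 FPKM in any library and was not tested.

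The makeup of the importin alpha transcripts differed between the states. Of the summed FPKM of the 4 importin alpha members, KPNA2 made 24.8%, 29.6%, 32.3% and 22.6% in the differentiated libraries, against 65.9%, 61.2%, 67.6% and 58.7% in the undifferentiated libraries. KPNA4 was the largest share in differentiated cells with 49.2% ± 5.01 (SD, n = 4), against 26.3% ± 3.64 in undifferentiated cells (n = 4). KPNA1 made 23.3% ± 3.47 in differentiated cells and 10.3% ± 0.982 in undifferentiated cells (SD, n = 4 each). The sum itself was 204 ± 48.3 FPKM in differentiated cells and 355 ± 36.0 FPKM in undifferentiated cells. With KPNA3 and KPNA5, which only an identifier table names, the share of KPNA2 was 24.9% ± 3.94 in differentiated cells and 58.0% ± 4.17 in undifferentiated cells. With 3 further rows that the deposited table describes as importin alpha without a symbol, it was 21.3% ± 3.60 in differentiated cells and 47.8% ± 3.62 in undifferentiated cells. These shares are a description, and no test was made of them. They rest on the deposited gene models, of which those of KPNA2 and KPNA4 lie on unplaced scaffolds.

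**Figure D3:**
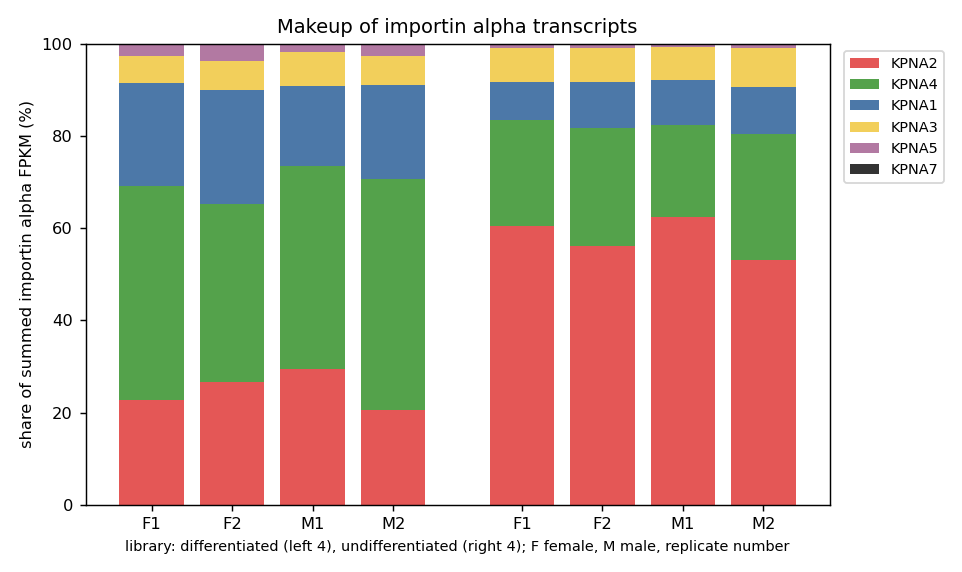
Share of the summed FPKM of KPNA1, KPNA2, KPNA3, KPNA4, KPNA5 and KPNA7 (y axis, percent) in each library, with the 4 differentiated libraries on the left and the 4 undifferentiated ones on the right. KPNA2 makes 20.6% to 29.4% in the differentiated libraries and 53.2% to 62.4% in the undifferentiated ones.

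Of the 9 importin beta and transportin members 8 fell and 1 did not pass. KPNB1, the carrier of importin alpha (ENSSSCG00000017514, chromosome 12, 23785575 to 23815916), had 58.3, 56.5, 88.1 and 71.0 FPKM in the differentiated libraries, against 122, 93.5, 123 and 112 FPKM in the undifferentiated libraries. Differentiated male replicate 1 came closest to the undifferentiated libraries without reaching them, and KPNB1 fell (log2 fold change -0.72 ± 0.12 SE, limma adjusted p = 0.00414). IPO5, an importin of ribosomal proteins and histones (ENSSSCG00000009509, chromosome 11, 74138129 to 74174551), had 68.1, 62.3, 100.3 and 75.9 FPKM in the differentiated libraries, against 188, 187, 168 and 179 FPKM in the undifferentiated libraries. It was among the most abundant members in both states and fell (log2 fold change -1.25 ± 0.11 SE, limma adjusted p = 0.000387).

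IPO7, which carries ribosomal proteins and, together with KPNB1, linker histones (ENSSSCG00000028886, chromosome 9, 12423 to 49487), had 73.9, 73.2, 86.8 and 77.6 FPKM in the differentiated libraries, against 142, 130.3, 123 and 128 FPKM in the undifferentiated libraries. SNORA23, averaging 42753 FPKM, overlaps IPO7 on the same strand, and how reads of the overlap were counted is not stated. The 2 states did not overlap and IPO7 fell (log2 fold change -0.74 ± 0.080 SE, limma adjusted p = 0.000773). Its close relative IPO8 had 13.0 to 15.6 FPKM in differentiated libraries, against 21.2 to 22.7 FPKM in undifferentiated ones and fell (log2 fold change -0.60 ± 0.086 SE, limma adjusted p = 0.00224). IPO4, a histone importin, had 19.9 to 23.6 FPKM in differentiated libraries, against 30.8 to 37.3 FPKM in undifferentiated ones and fell (log2 fold change -0.62 ± 0.080 SE, limma adjusted p = 0.0015). The log2 fold changes of IPO4, IPO7 and IPO8 lay between -0.74 and -0.60.

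The transportins did not all pass. TNPO3, the carrier of serine-arginine splicing factors, had 37.0 to 43.7 FPKM in differentiated libraries, against 52.8 to 62.9 FPKM in undifferentiated ones and fell (log2 fold change -0.51 ± 0.086 SE, limma adjusted p = 0.00424). TNPO2 had 10.01 to 12.9 FPKM in differentiated libraries, against 16.6 to 18.5 FPKM in undifferentiated ones and fell too (log2 fold change -0.63 ± 0.096 SE, limma adjusted p = 0.00278). It is overlapped on the same strand by 2 rows named SNORD41, and how reads of the overlap were counted is not stated. The mean of 1 of these rows was far above that of any member, and the other was at 0 FPKM. TNPO1, a close relative of TNPO2 that carries RNA-binding proteins, overlapped between the states, with 67.0 to 85.0 FPKM in differentiated libraries, against 67.2 to 79.6 FPKM in undifferentiated ones. It did not pass (log2 fold change -0.06 ± 0.10 SE, limma adjusted p = 0.631), and its log2 fold change was 0.14 under median-ratio scaling. IPO9, a histone and actin carrier, had 54.7 to 63.2 FPKM in differentiated libraries, against 69.2 to 79.8 FPKM in undifferentiated ones and the smallest fall of the called members (log2 fold change -0.31 ± 0.091 SE, limma adjusted p = 0.0308). The IPO9 call ended under median-ratio scaling (log2 -0.10, adjusted p = 0.395) and quantile normalization (adjusted p = 0.121), and in 5 of the 8 fits that omitted 1 library, differentiated female 1, differentiated male 1, undifferentiated female 1 or 2, or undifferentiated male 1 (0.0701 to 0.0857). IPO9 lies within NAV1 on the same strand, a gene that fell with a log2 of -0.80, and how reads of the overlap were counted is not stated.

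Of the 4 exportins 2 fell, 1 rose and 1 did not pass. XPO1, the main exporter of proteins with a nuclear export signal (ENSSSCG00000028228, chromosome 3, 84163385 to 84182474), had 36.2, 36.1, 51.4 and 42.3 FPKM in the differentiated libraries, against 86.9, 67.8, 87.8 and 79.1 FPKM in the undifferentiated libraries. No differentiated library reached the undifferentiated range, and XPO1 fell (log2 fold change -0.95 ± 0.12 SE, limma adjusted p = 0.00126). A gene without a symbol on the opposite strand, ENSSSCG00000028100, overlaps XPO1 and had a log2 fold change of -0.78, and whether the counting used strand is not stated. XPO6, the exporter of actin with profilin, had 21.6 to 29.0 FPKM in differentiated libraries, against 34.0 to 46.8 FPKM in undifferentiated ones and fell (log2 fold change -0.58 ± 0.095 SE, limma adjusted p = 0.00358).

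XPO4, the exporter of the translation factor EIF5A and of SMAD3 (ENSSSCG00000009276, chromosome 11, 230115 to 288910), had 32.4, 23.3, 19.3 and 19.6 FPKM in the differentiated libraries, against 17.8, 15.6, 15.4 and 15.2 FPKM in the undifferentiated libraries. It was highest in differentiated female replicate 1 and above the undifferentiated libraries in all 4 differentiated ones, and it rose (log2 fold change 0.51 ± 0.12 SE, limma adjusted p = 0.0158). Leaving out undifferentiated female replicate 2 ended the call of XPO4 (adjusted p = 0.0559), and without that library NUP214 was the only member left that rose. XPO7, a carrier with many cargoes, had 19.1 to 21.1 FPKM in differentiated libraries, against 19.0 to 25.5 FPKM in undifferentiated ones and did not pass (log2 fold change -0.18 ± 0.10 SE, limma adjusted p = 0.198), with a log2 fold change of 0.025 under median-ratio scaling.

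The order of levels among the members differed between the states. In differentiated cells KPNA4 came first with 101 ± 28.0 FPKM, followed by IPO7 with 77.9 ± 6.29, IPO5 with 76.6 ± 16.7, TNPO1 with 72.4 ± 8.46 and KPNB1 with 68.5 ± 14.6 (SD, n = 4), and these neighbours in the order did not differ beyond their spread. KPNA2 was at rank 7 of the 30 members in differentiated cells, with 56.1 ± 19.7 FPKM. In undifferentiated cells KPNA2 was the most abundant member, with 226 ± 36.2 FPKM, followed by IPO5 with 180.5 ± 8.99, IPO7 with 131 ± 8.32 and KPNB1 with 113 ± 13.6 (SD, n = 4). Summed over all 30 members, the level was 837 to 1079 FPKM in differentiated libraries and 1421 to 1575 FPKM in undifferentiated ones. Among the 13 nucleoporins chosen by symbol, the highest level was that of NUP214 in differentiated cells, with 32.5 ± 5.25 FPKM, and that of NUP188 in undifferentiated cells, with 41.8 ± 3.18 FPKM.

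In differentiated male replicate 1 all 11 proliferation markers were the highest of the 4 differentiated libraries, with a sum of 132 FPKM against 47.3, 48.6 and 57.7 FPKM in the others. The same library was the highest of its state for 15 of the 28 tested members, among them KPNA2, KPNB1, IPO5, IPO7 and XPO1, and for 29.7% of all tested genes, and it was the lowest for 6 members. Differentiated female replicate 2 was the highest for 1 member and for 18.6% of all tested genes, and the lowest for 13 members. The share of all tested genes was not computed for the lowest library. Undifferentiated female replicate 1 was the highest of its state for 13 members and for 22.4% of all tested genes. The fibroblast marker sum, mostly of COL1A1 and COL3A1, was also highest of its state in differentiated male replicate 1, at 1130.4 FPKM. Without it 17 members fell and 3 rose, where 29.2% and 17.0% of all tested genes did so. The log2 fold changes without it were -2.24 for KPNA2, -1.35 for IPO5 and -1.01 for XPO1. All 11 proliferation markers fell with the state, with a median log2 fold change of -2.54, and their part in the falls of the members was not tested.

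The comparison was also read within each sex. In females 17 members fell and 2 rose, where 23.3% and 12.5% of all tested genes did so, and in males 13 fell and 0 rose, where 20.1% and 12.9% did so (limma, 2 libraries per group). At an unadjusted p under 0.05, 22 members passed in females and 17 in males, where 46.9% and 45.1% of all tested genes did. These counts do not show that the sexes differ. The test of the difference of the effect called 0 of 28 members, where 0.0231% of all tested genes were called, and 0 members had an unadjusted p under 0.05, as 6.03% of all tested genes had. The smallest p for that difference was that of IPO5 (unadjusted p = 0.0523, limma adjusted p = 0.808), with log2 fold changes of -1.51 in females and -0.98 in males. KPNA4 had log2 fold changes of -0.28 in females and 0.44 in males, and NUP98 had -0.34 in females and 0.01 in males. Averaged over the states, females minus males, 0 members were called, where 0.0849% of all tested genes were, and 1 member had an unadjusted p under 0.05, as 9.73% of all tested genes had. That member was XPO6 (log2 -0.29, unadjusted p = 0.0216, limma adjusted p = 0.469).

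**Figure D4:**
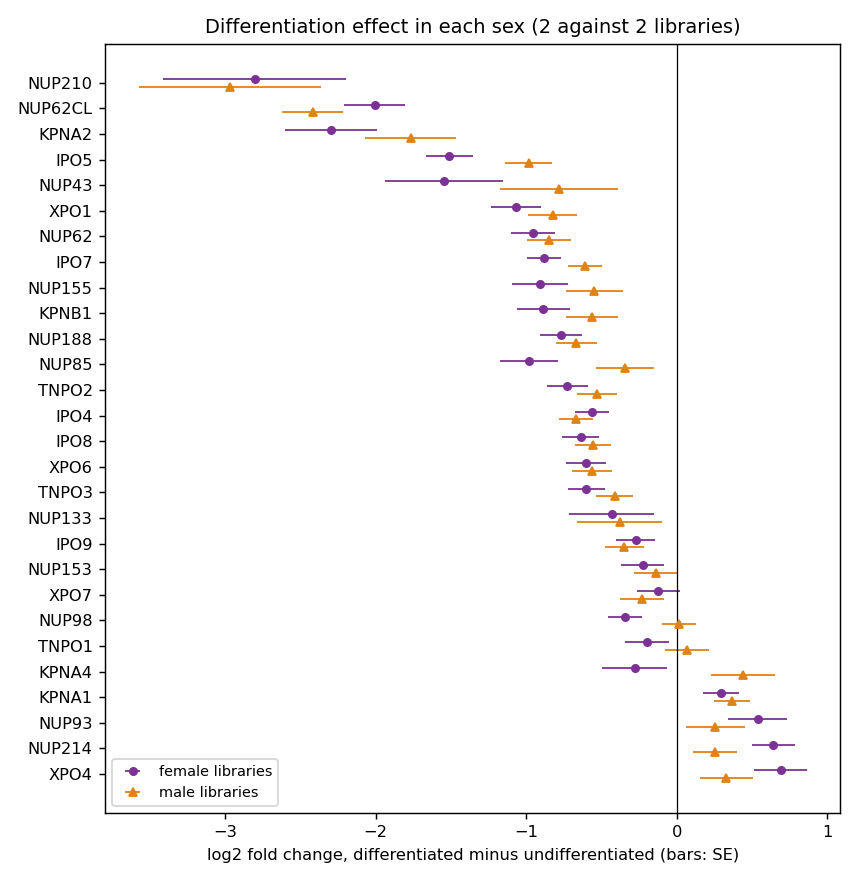
Log2 fold change (differentiated minus undifferentiated, x axis) of the 28 tested members in female libraries (circles) and in male libraries (triangles), with SE bars, 2 against 2 libraries in each sex. NUP210 lies at -2.80 in females and -2.97 in males, and KPNA4 at -0.28 in females and 0.44 in males; the difference between the sexes was not called for any of the 28 members.

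The deposited table leaves a symbol out for 11 further genes that the identifier table places in these families. Of these 5 fell, 1 rose and 5 did not pass, where 31.9% of all tested genes fell and 18.0% rose. Under median-ratio scaling 3 of the 11 fell and 1 rose, where 23.2% and 24.1% of all tested genes did so. XPO5, the exporter of microRNA precursors (ENSSSCG00000001679, chromosome 7, 44112974 to 44151883), had 16.3, 13.8, 23.2 and 21.0 FPKM in the differentiated libraries, against 48.9, 43.0, 49.5 and 52.0 FPKM in the undifferentiated libraries. The states were far apart and XPO5 fell (log2 fold change -1.36 ± 0.096 SE, limma adjusted p = 0.000188). NUP205, the inner ring paralog of NUP188 (ENSSSCG00000030386, chromosome 18, 14414155 to 14455024), had 7.01, 6.91, 11.4 and 8.41 FPKM in the differentiated libraries, against 25.2, 20.8, 29.1 and 17.8 FPKM in the undifferentiated libraries and fell (log2 fold change -1.36 ± 0.18 SE, limma adjusted p = 0.00178). KPNA3 (log2 -1.01, adjusted p = 0.0023), IPO11 (log2 -0.54, adjusted p = 0.0135) and NUP54 (log2 -0.47, adjusted p = 0.0194) also fell, by limma. Whether a row described as importin subunit alpha-3 belongs to the gene of KPNA3, of KPNA4 or of neither was not resolved. KPNA5 (log2 0.66, adjusted p = 0.0129), of the KPNA1 subfamily, rose. NUP107, NUP160 and NUP37 of the Y complex, NUP35 of the inner ring and NUP50 of the basket did not pass, with log2 fold changes of -0.16, -0.24, -0.47, -0.53 and -0.10. The values of NUP107 and NUP50 were 0.036 and 0.045 under median-ratio scaling. Median-ratio scaling ended the calls of IPO11 (adjusted p = 0.0544) and NUP54 (0.101), that of IPO11 ended also without undifferentiated female replicate 1 (0.0518), and that of NUP54 in 7 further alternatives. NUP35 was called without differentiated male replicate 1 (adjusted p = 0.0269).

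Other genes of the pathway were read from 4 lists, of which 39 genes were tested, with 19 that fell, 2 that rose and 18 that did not pass. Across all tested genes 31.9% fell and 18.0% rose. The median log2 fold change of the 39 was -0.41. Of the 10 other pore subunits tested 6 fell and 1 rose. NDC1 (log2 -1.56, adjusted p = 0.00436), which anchors the pore in the membrane, AAAS (log2 -1.10, adjusted p = 0.00568), also known as aladin, SEH1L (log2 -0.81, adjusted p = 0.00299) and SEC13 (log2 -0.72, adjusted p = 0.0313) of the Y complex, AHCTF1 (log2 -0.63, adjusted p = 0.00232), which seeds pore assembly on chromatin, and RANBP2 (log2 -0.27, adjusted p = 0.0375) of the cytoplasmic filaments fell by limma. NUPL2 (log2 0.39, adjusted p = 0.0356) rose.

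In the RAN cycle 4 of 9 tested genes fell and 1 rose, where 31.9% and 18.0% of all tested genes did so. RAN, the GTPase itself, had 168, 137, 192 and 152 FPKM in the differentiated libraries, against 316, 314, 345 and 317 FPKM in the undifferentiated libraries. Every differentiated library was lower and RAN fell (log2 fold change -1.001 ± 0.12 SE, limma adjusted p = 0.00102). Its partner RANBP1 (log2 -1.11, adjusted p = 0.000842) and the exchange factor RCC1 (log2 -0.45, adjusted p = 0.0229) fell, and NUTF2 (log2 0.28, adjusted p = 0.033), which returns RAN to the nucleus, rose. Of 10 other receptors and adaptors 3 fell, a share near that of all tested genes, namely RANBP17 (log2 -0.76, adjusted p = 0.00418), XPOT (log2 -0.72, adjusted p = 0.00239), the exporter of tRNA, and PHAX (log2 -0.57, adjusted p = 0.0186), an adaptor of small nuclear RNA export. Of 10 mRNA export genes 6 fell, and THOC6 (log2 -2.19, adjusted p = 0.00083), DDX39A (log2 -0.75, adjusted p = 0.00157), THOC3 (log2 -0.65, adjusted p = 0.00914), THOC2 (log2 -0.55, adjusted p = 0.00804), PCID2 (log2 -0.45, adjusted p = 0.0325) and THOC1 (log2 -0.41, adjusted p = 0.011) were these. The calls of NUPL2, RANBP2, SEC13, NUTF2, RCC1, PHAX, PCID2 and THOC1 ended under at least 1 alternative. Under median-ratio scaling 13 of the 39 genes fell and 5 rose, where 23.2% and 24.1% of all tested genes did so. The falls and rises were then 4 and 1 for the other pore subunits and 3 and 3 for the RAN cycle. They were 2 and 1 for the other receptors and adaptors and 4 and 0 for mRNA export.

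**Figure D5:**
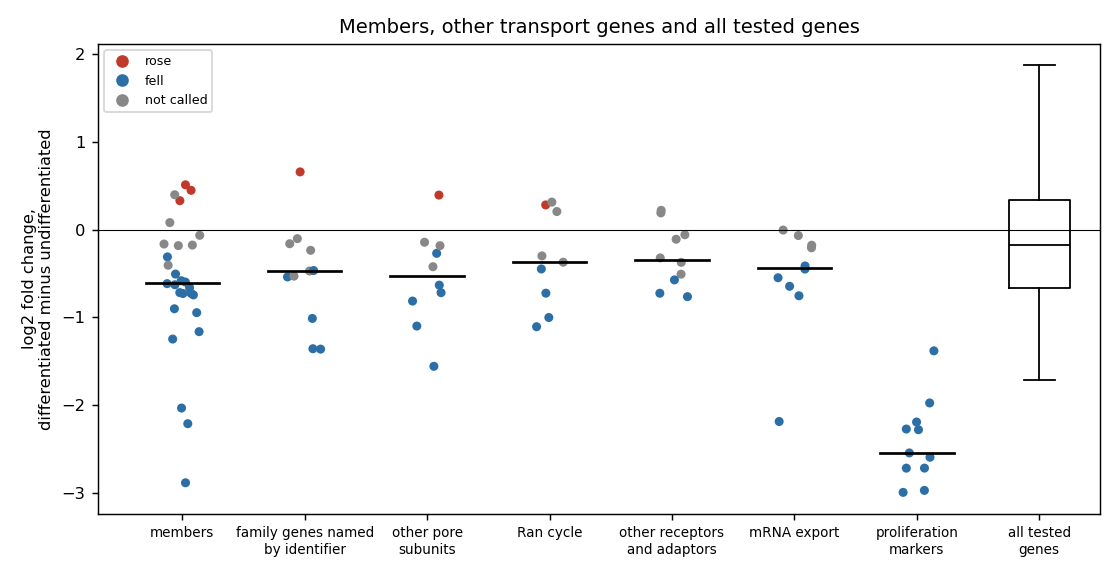
Log2 fold change (differentiated minus undifferentiated, y axis) of the members, the 11 family genes named by identifier, the 4 other lists and the proliferation markers, each point a gene and each black line a median, beside a box of all 12963 tested genes (box: quartiles, whiskers: percentiles 5 and 95). The median is -0.61 for the members, -0.53 for other pore subunits, -0.37 for the RAN cycle, -2.54 for the proliferation markers and -0.18 for all tested genes.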

How the data were processed

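RNA was sequenced, per the labels' protocols, from stranded total RNA libraries of low input read as 100-bp paired ends. The molecule label names polyA RNA instead. The authors deposited 1 table with an FPKM value per gene and library. Per the submitters' processing notes it was made with Sscrofa10.2 as the build and with TopHat2 2.0.12.1, Cufflinks 2.2.1 and cutadapt 1.6, with settings not given in the sources used here. Whole read counts were not recovered, so tests on counts were not run and read depth is unknown. Relative depth was estimated from the commonest ratio of low values in 28 pairs of libraries.

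Values were taken as log2(FPKM + 1), and 12963 genes averaging 1 FPKM or more were tested with limma 3.58.1 in R 4.3.3 (1 mean per group, 4 residual and 2.09 prior degrees of freedom, mean-variance trend, Benjamini-Hochberg adjustment over all tested genes, threshold 0.05). The code was checked on simulated data. "Rose" and "fell" describe only calls that passed, and ± gives the SD of FPKM over 4 libraries unless SE is written. Symbols were taken from the deposited table, and 1841 of its genes were named through an Ensembl identifier table. The members and lists were chosen with earlier results of these data known. All 8 values are given for the 10 called members with the largest falls, the called rises (at most 6) and the largest called change of each role in either direction, other members named with 8 values being chosen after their values were seen, and the called genes of the other lists are named, except 1 that is not reported here. For 8 members a gene in the table overlaps, 3 of them on the same strand.

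Alternatives were a pseudocount of 0.1, no filter or a minimum of 5 FPKM, median-ratio scaling, quantile normalization, genes of at least 300 bp, a replicate block, a model without sex, and each library left out. Leaving out a library leaves its group with 1 sample, assumed to vary like the others. Adding the identifier-named genes was chosen after seeing the data.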

Additional observations from a re-analysis of the deposited data

Results flagged for a closer look

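In 6 of 56 sets of 4 libraries, 1 set per tested member and state, a single library lay far from the other 3 relative to the range of the set, and chance alone flags about 1 in 20 such sets. The sets share the same libraries and so are not independent, and the share flagged over all tested genes was not computed. In differentiated male replicate 1, KPNA2 (85.5 FPKM) and TNPO1 (85.0 FPKM) were high and NUP62 (17.5 FPKM) was low. In differentiated female replicate 1, NUP93 was high at 25.5 FPKM and NUP153 low at 16.5 FPKM. XPO4 was high in undifferentiated female replicate 1, at 17.8 FPKM. No member moved in opposite directions in all libraries of the 2 sexes.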

How the results depend on the processing

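Of 21 called members, 17 kept their call and direction under all 16 alternatives, and the exceptions were IPO9, KPNA1, NUP43 and XPO4. Leaving out 1 library gave 16 to 18 falls and 1 to 3 rises among the members, with a median log2 fold change of -0.63 to -0.56. That median was -0.41 under median-ratio scaling, -0.44 under quantile normalization and -0.54 with the identifier-named genes. In females 4 members rose under either scaling, and 13 fell under median-ratio scaling and 14 under quantile normalization (all tested genes: 17.4% and 14.8% rose, 16.1% and 16.9% fell). Leaving out 1 library gave 0 to 2 rises and 8 to 17 falls. In males 1 member rose under either scaling and with a minimum of 5 FPKM, and 9 fell under either scaling (all tested genes: 16.4% and 14.4% rose, 14.4% and 15.9% fell). Leaving out 1 library gave 6 to 13 falls. All tested genes also gave fewer falls in each fit without 1 library than in the main fit, both over the sexes and within each sex. Lower counts of falls in these fits are therefore not particular to the members. In the 4 other lists 5 genes rose under either scaling, and 1 without the filter, with a minimum of 5 FPKM or with the replicate block. Of all tested genes 3128 and 2699 of 12963 rose under median-ratio scaling and quantile normalization. Without the filter 2887 of 19990 rose, with that minimum 1720 of 9482 and with the block 2267 of 12963. Signs changed, in no case past the threshold, under median-ratio scaling for NUP107 (0.036), NUP153 (0.018), NUP50 (0.045), NUP98 (0.038), TNPO1 (0.14) and XPO7 (0.025), and under quantile normalization for NUP107 (0.025), NUP98 (0.010) and TNPO1 (0.016). Leaving out 1 library gave -0.14 to 0.013 for TNPO1 and -0.064 to 0.23 for KPNA4. The cause was not tested. Libraries of 1 sex and replicate number did not deviate together (r = -0.01 to 0.07), 2 of the 4 differentiated libraries correlated best with their own number, and the numbers were not taken as pairs. With the replicate block 17 members fell and 4 rose, where 4061 and 2267 of all 12963 tested genes did so. The call of IPO9 then ended (adjusted p = 0.0512, limma) and NUP93 (0.0369) and NUP35 (0.0282) were called. NUP210L and KPNA7 were tested only without the filter on low values, where all 30 members were tested and neither was called.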

Other observations

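The deposited table describes, as members of these families, 4 further rows that neither it nor the identifier table names by symbol. The largest in level was described as importin subunit alpha-3 (ENSSSCG00000009391, chromosome 11, 18085027 to 18109816), on the minus strand of the chromosome that holds the row named KPNA3 (18284859 to 18292470, plus strand). Whether the row described as alpha-3 belongs to the gene of KPNA3, of KPNA4 or of neither was not resolved. The values of KPNA3 or KPNA4 may therefore cover part of a gene, and these rows may not be independent. The row described as alpha-3 was at 34.7, 22.9, 49.1 and 43.9 FPKM in differentiated libraries, against 89.3, 74.7, 86.1 and 79.9 FPKM in undifferentiated libraries, and fell (log2 fold change -1.16 ± 0.15 SE, limma adjusted p = 0.00146). The states did not overlap. The row described as importin 13 (ENSSSCG00000029430) was at 3.57 ± 0.793 FPKM in differentiated cells and 4.56 ± 1.05 FPKM in undifferentiated cells (SD, n = 4 each) and did not pass (log2 -0.28, limma adjusted p = 0.248). The other 2, described as importin subunit alpha on chromosome 6, stayed at or under 0.572 FPKM in all 8 libraries.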
